A study of Mus musculus with 126 samples.

Results

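Most of the genes described here build and hold the extracellular matrix, and both PDGF receptors were listed with them. The full set was 38 genes chosen by name. Besides the receptors it held collagens, basement membrane components, small leucine-rich proteoglycans, elastic fibre and microfibril proteins, adhesive glycoproteins and collagen-processing enzymes. Each was followed through the probe set of highest mean that the platform annotation gives to that gene alone. 37 of the 38 had such a probe set, and all 37 passed the filter on dim probe sets. Fbn1 (fibrillin 1) was not analysed here. The 37 probe sets were part of 23507 tested, of 41345 on the array.

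Collagens are triple helices. The fibrillar types I, III and V assemble into the cables that give tissue its tensile strength, while type IV forms the sheet-like network of the basement membrane under epithelium and around vessels and muscle cells. Small leucine-rich proteoglycans such as decorin and lumican bind collagen fibrils and control their width and spacing. In the normal prostate each gland is wrapped in fibroblasts and smooth muscle that make much of this matrix, and carcinomas remodel it.

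The tumors came from transgene-positive F2 males of an intercross between TRAMP mice, on a C57BL/6J background, and NOD/ShiLtJ mice. Every male carried the PB-TAg transgene, in which the probasin promoter drives the SV40 T antigens in prostate epithelium, and there was no treatment and no transgene-negative prostate. Prostate tumors of males were collected at 30 weeks of age or at a humane endpoint and snap frozen, and each gave 1 array from total RNA. The labels divide the 126 tumors into 87 with metastasis and 39 with no metastasis, without naming the site. Primary tumor burden (the prostate tumor's weight, with seminal vesicles recorded separately) ranged in g from 0.10 to 14.0 and averaged 4.59 ± 3.01 (SD, n = 126). It averaged 4.79 ± 3.15 in the metastasis group and 4.13 ± 2.64 in the other. For description the tumors were also divided into 15 under 1 g, 40 of 1 to under 4 g, 42 of 4 to under 7 g and 29 of 7 g or more.

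The deposited values are log2 intensities after RMA normalization, and the medians of the arrays lay between 5.84 and 6.05. One array, of a tumor of 0.40 g with no metastasis, correlated least with the others, with a mean r of 0.88 against 0.92 for the next array and a median of 0.97. It held the highest small leucine-rich proteoglycan mean of all tumors and ranked 2 of 126 for smooth muscle markers. The same array ranked 1 for Schwann cell and nerve markers and 2 for endothelial markers. From the highest it ranked 118 of 126 for neuroendocrine and 124 of 126 for mitosis markers. The label of the tissue as prostate tumor was not tested, because no criterion was set for the marker lists, which are given as a description. The mean of 15 epithelial markers ranged from 5.85 to 9.88, while the mean of 15 neuroendocrine markers ranged from 5.68 to 9.25. The mean of 5 seminal vesicle secretory genes ranged from 4.21 to 11.47 in tumors under 1 g. It ranged from 4.28 to 10.05 in tumors of 7 g or more. Whether seminal vesicle tissue was part of some samples was not tested.

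Most matrix genes were lower in heavier tumors. Of the 37 genes, 33 fell with tumor burden and 0 rose at an adjusted p under 0.05, in a straight-line fit of log2 value on g. Over all probe sets tested, 16.4% fell and 20.3% rose by the same rule (3860 and 4777 of 23507). With each array centred on its median, those counts became 3180 and 6957, and 30 of the 37 genes fell. The median slope of the 37 genes was -0.065 log2 per g. Col4a2, Fbln1, Fbln2 and Pdgfra did not pass the threshold. The steepest part lay at the light end: in 30 of the 37 genes the largest step down between neighbouring weight classes was the one from tumors under 1 g to those of 1 to under 4 g. The ranges of tumors under 1 g and of 7 g or more overlapped for all 37 genes. In bulk tissue, fewer cells of a type and less RNA per cell cannot be told apart. The study reported that mice with larger primary tumors died younger. The fits here held no term for age, and its part was not tested.

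**Figure D1:**
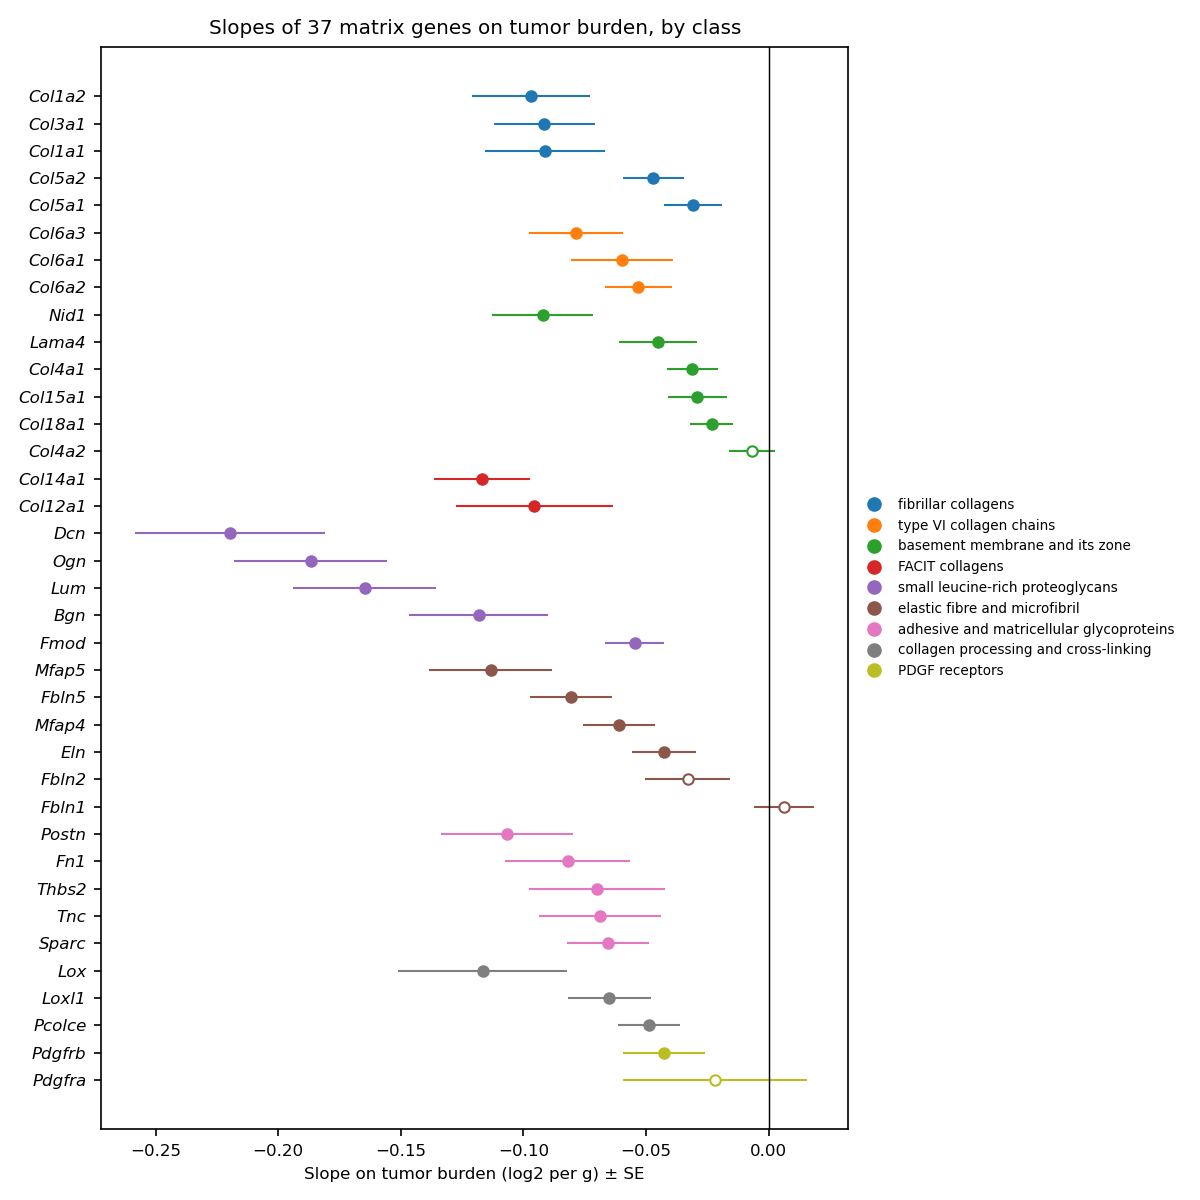
Slope of each of 37 matrix genes on tumor burden (x axis, log2 per g, with its SE) grouped by class. Filled points passed an adjusted p of 0.05 and open points did not. The small leucine-rich proteoglycans Dcn, Ogn and Lum lie farthest to the left, and Fbln1 is the only gene with a slope above 0.

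The count depended on the lightest tumors. Without the 15 tumors under 1 g, 6 of the 37 genes still fell, namely Col3a1, Col14a1, Nid1, Dcn, Lum and Ogn, against 4.54% of all probe sets. All 37 estimates were below 0 in that fit, while 57.9% of all probe sets had an estimate above 0. The 37 genes varied together, so their signs are not separate results. Smooth muscle and epithelial markers fell with burden as well, and with the mean of either list as a covariate 0 of the 37 genes passed, with smallest adjusted p values of 0.22 and 0.14. Of all probe sets only 0.196% and 0.153% fell in those fits (46 and 36 of 23507), so a count of 0 is near the background and says nothing particular to these genes. Without the array that correlated least with the others the count was also 33.

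The small leucine-rich proteoglycans had the steepest median slope of the classes. All 5 passed, with a median slope of -0.165 log2 per g and a range from -0.220 to -0.055. Dcn encodes decorin, which binds fibrillar collagen and TGF-beta. Its value ran from 7.51 through a median of 11.49 to 12.36 in tumors under 1 g. In tumors of 7 g or more it ran from 5.58 through 8.72 to 10.51, which at the medians was 6.80-fold lower. The heaviest class therefore had no tumor above the median of the lightest, although the ranges overlapped. The slope was -0.220 ± 0.039 (SE, n = 126) with an adjusted p of 5.3e-06, and r was -0.45.

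Ogn encodes osteoglycin (mimecan), a proteoglycan of vessel walls and connective tissue. It had a median of 8.07 in tumors under 1 g (5.07 to 9.90) and of 5.40 in tumors of 7 g or more (4.60 to 6.54). Its slope was -0.187 ± 0.031, with an adjusted p of 2.0e-06. From 1 g up the class medians were 5.76, 5.47 and 5.40, although single tumors of the middle classes reached 9.59 and 9.08. The window around its annotated start site (GRCm38.p6, chr13:49607765-49608064, plus strand) is shown because it is the steepest proteoglycan with a RefSeq promoter in the table used. Capitals mark matches to TATAAA, here 2 that overlap on opposite strands, at -229 and -227 from the start.
Ogn: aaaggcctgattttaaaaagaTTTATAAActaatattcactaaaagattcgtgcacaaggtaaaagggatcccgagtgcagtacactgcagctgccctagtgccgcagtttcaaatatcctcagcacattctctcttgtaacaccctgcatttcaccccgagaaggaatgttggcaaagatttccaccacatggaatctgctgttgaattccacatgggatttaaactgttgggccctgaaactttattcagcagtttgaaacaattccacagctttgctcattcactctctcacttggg

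Promoter windows of 250 bases before to 50 after an annotated start were found for 24 of the 38 genes, in 30 windows. They were searched on both strands for CCAAT (the CCAAT box), GGGCGG (the GC box) and TATAAA (the TATA box), and positions are those of the left end of a match, with the first transcribed base as 1. CCAAT was found in 9 of the 30 windows (30.0%) and in 37.4% of all 32851 promoter windows of the same length. GGGCGG was present in 16 (53.3%) against 35.7%, and TATAAA in 6 (20%) against 13.6%. Some windows overlap, so these counts hold some matches more than once. Both Tnc windows hold the same GGGCGG and the same TATAAA, and Col4a1 and Col4a2 share a GGGCGG. A match is only a string of letters in the window and was not tested against the measurements.

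Lum encodes lumican, a keratan sulphate proteoglycan of collagen fibrils, and lies next to Dcn on chromosome 10. It had a median of 6.08 in tumors under 1 g (4.09 to 8.67) and 4.35 in tumors of 7 g or more (3.48 to 5.67), a 3.31-fold difference at the medians. The slope was -0.165 ± 0.029, with an adjusted p of 5.6e-06. The lowest value of Lum over all tumors, 3.31, lay below the 3.42 of the filter on dim probe sets. Its fold difference and slope are therefore less sure. Bgn encodes biglycan, a close relative of decorin. Its median went from 11.27 (8.85 to 12.68) to 9.85 (6.91 to 11.67), with a slope of -0.118 ± 0.028 and an adjusted p of 0.00051. Only 1 of the 29 heaviest tumors exceeded the median of the lightest. Fmod, fibromodulin, had the smallest slope of the class at -0.055 ± 0.012, with an adjusted p of 0.00019. Its median fell from 6.77 to 6.13 across the first step and then lay at 6.10 in both heavier classes. A dimmer second probe set of Fmod had a slope of -0.0022 and did not pass (adjusted p = 0.79).

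**Figure D2:**
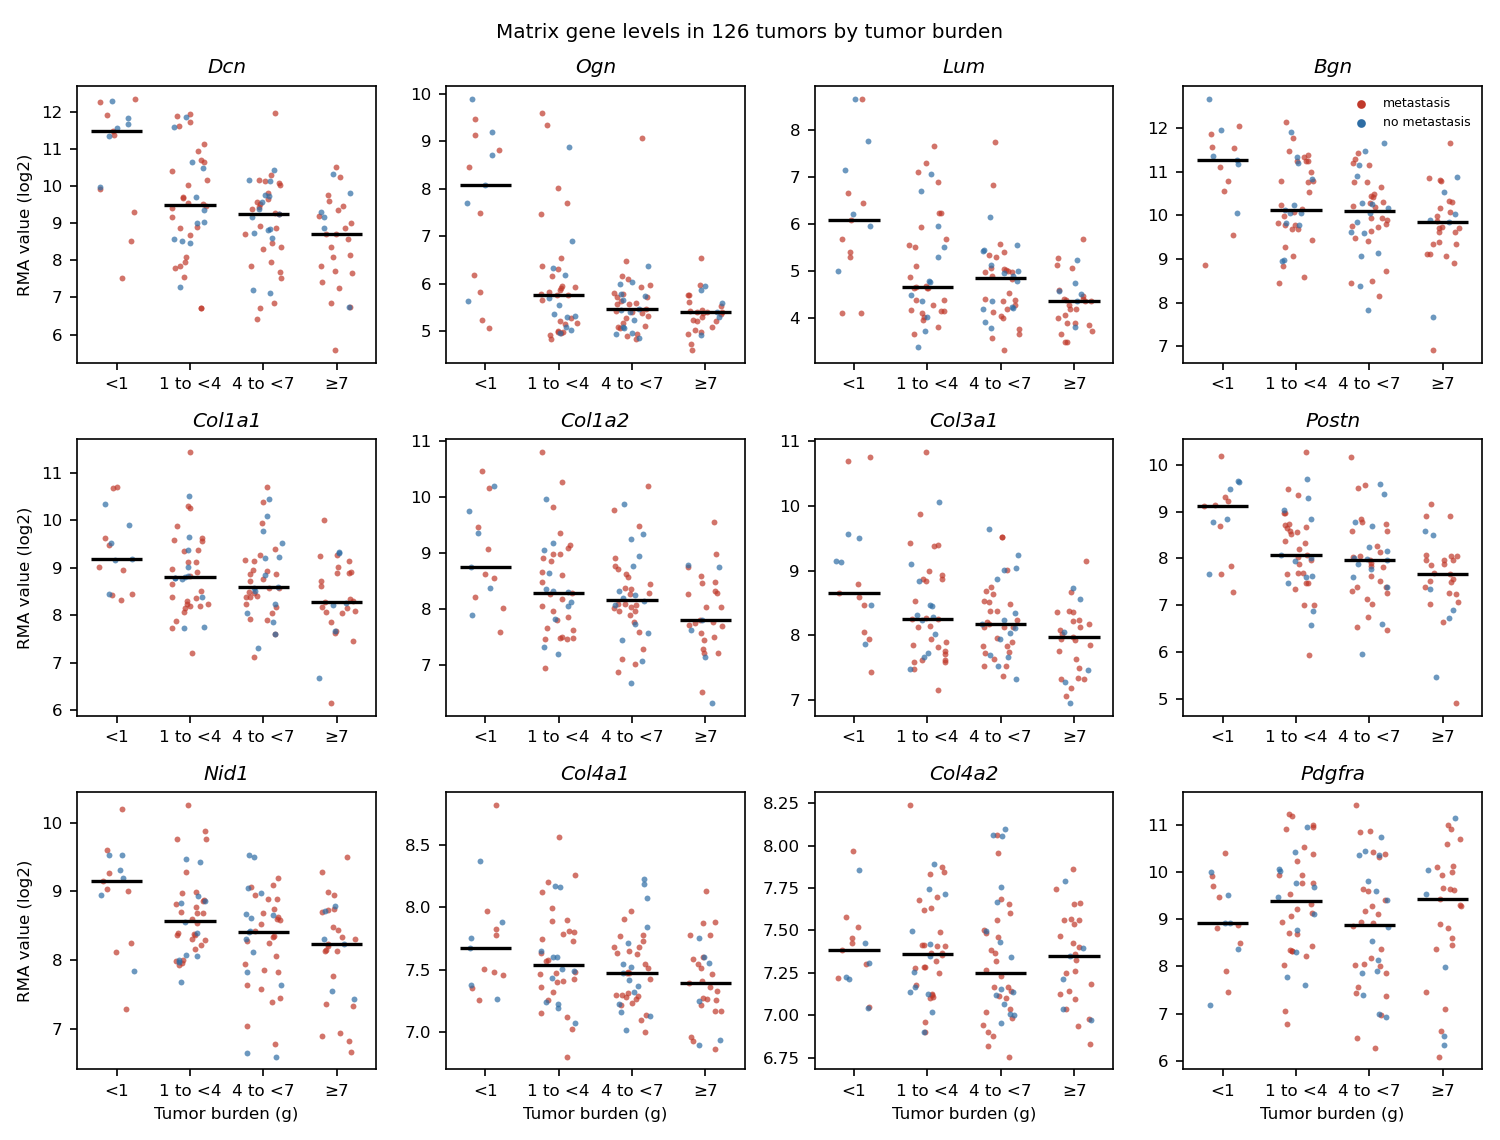
RMA value (y axis, log2) of 12 matrix genes in each of 126 tumors, in 4 classes of tumor burden (x axis, g). Points are tumors, red with metastasis and blue with no metastasis, and black bars are class medians. Dcn, Ogn, Lum and Bgn step down after the class under 1 g, whereas the medians of Col4a2 stay between 7.25 and 7.38 and those of Pdgfra have no steady direction.

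Of the fibrillar collagens all 5 passed, with a median slope of -0.091 log2 per g and a range from -0.097 to -0.031. Col1a1 and Col1a2 encode the 2 chains of type I collagen. Col1a1 had a median of 9.18 in tumors under 1 g (8.32 to 10.71) and of 8.28 in tumors of 7 g or more (6.15 to 10.02). Its slope was -0.091 ± 0.024, with an adjusted p of 0.0019. Col1a2 went from 8.75 (7.59 to 10.46) to 7.80 (6.31 to 9.55), with a slope of -0.097 ± 0.024 and an adjusted p of 0.00084. In each of these genes 5 of the 29 heaviest tumors exceeded the median of the lightest, so high type I collagen was present in some heavy tumors.

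Col3a1 encodes the chain of type III collagen, which forms the finer fibrils of elastic tissue. Its median went from 8.65 (7.44 to 10.76) to 7.98 (6.95 to 9.16), with a slope of -0.091 ± 0.021 and an adjusted p of 0.00024. Col5a2 and Col5a1 encode chains of type V collagen, which nucleates type I fibrils. Their slopes were -0.047 ± 0.012 and -0.031 ± 0.012, with adjusted p values of 0.0017 and 0.031. Dimmer second probe sets of Col1a2 and Col5a1 had slopes of 0.0067 and 0.0079 and did not pass (adjusted p = 0.74 and 0.24). The Col1a2 window (GRCm38.p6, chr6:4505368-4505667, plus strand) is shown as the steepest fibrillar gene with a window. Capitals mark CCAAT on either strand, at -109 and 1, and GGGCGG, at -205 and -188.
Col1a2: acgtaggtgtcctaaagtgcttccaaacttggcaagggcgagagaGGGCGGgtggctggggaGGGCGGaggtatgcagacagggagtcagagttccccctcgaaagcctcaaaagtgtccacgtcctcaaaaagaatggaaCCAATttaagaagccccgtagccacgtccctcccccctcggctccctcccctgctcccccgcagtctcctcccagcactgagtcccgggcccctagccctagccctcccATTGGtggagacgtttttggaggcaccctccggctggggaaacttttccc

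The basement membrane class had the median slope nearest 0, and 5 of its 6 genes passed the threshold. Its median slope was -0.030 log2 per g, with a range from -0.092 to -0.007. A slope in log2 per g also depends on how widely a gene varies. The class mean had r = -0.336 with burden, against -0.342 for the fibrillar and -0.466 for the proteoglycan mean. Whether the classes differ in slope was not tested. Nid1 encodes nidogen 1, which links the laminin and type IV collagen networks, and had the steepest slope of its class. Its median was 9.16 in tumors under 1 g (7.28 to 10.20) and 8.24 in tumors of 7 g or more (6.66 to 9.49). The slope was -0.092 ± 0.020, with an adjusted p of 0.00019. Lama4, the alpha 4 laminin chain of vessel walls, had a slope of -0.045 ± 0.016 and an adjusted p of 0.018. Col15a1 and Col18a1 encode the multiplexin collagens of the basement membrane zone, and Col18a1 is the source of endostatin. Their slopes were -0.029 ± 0.012 and -0.023 ± 0.0087, with adjusted p values of 0.047 and 0.027.

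Col4a1 and Col4a2 encode the chains of the most widespread type IV collagen trimer. Col4a1 had a median of 7.67 in tumors under 1 g (7.26 to 8.82) and of 7.40 in tumors of 7 g or more (6.86 to 8.13), and its slope was -0.031 ± 0.010 with an adjusted p of 0.012. Col4a2 had medians of 7.38 (7.04 to 7.96) and 7.35 (6.83 to 7.86), and its slope was -0.0067 ± 0.0093 with an adjusted p of 0.61. Of the 29 heaviest tumors, 13 exceeded the median of the lightest for Col4a2 and 6 did so for Col4a1. Whether these slopes differ was not tested. The genes lie head to head on chromosome 8, and their annotated first bases in GRCm38.p6 are 21 bases apart, so the windows chr8:11312777-11313076 (minus strand) and chr8:11312555-11312854 (plus strand) share 78 bases. Both are shown because the pair shares a stretch of DNA and its levels ran together. Capitals mark CCAAT and GGGCGG on either strand.
Col4a1: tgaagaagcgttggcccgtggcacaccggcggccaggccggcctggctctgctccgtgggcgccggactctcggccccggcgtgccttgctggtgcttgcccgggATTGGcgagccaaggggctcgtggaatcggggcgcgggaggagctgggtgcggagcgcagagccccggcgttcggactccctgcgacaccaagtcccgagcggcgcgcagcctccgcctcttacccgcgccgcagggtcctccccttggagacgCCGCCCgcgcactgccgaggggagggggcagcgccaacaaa
Col4a2: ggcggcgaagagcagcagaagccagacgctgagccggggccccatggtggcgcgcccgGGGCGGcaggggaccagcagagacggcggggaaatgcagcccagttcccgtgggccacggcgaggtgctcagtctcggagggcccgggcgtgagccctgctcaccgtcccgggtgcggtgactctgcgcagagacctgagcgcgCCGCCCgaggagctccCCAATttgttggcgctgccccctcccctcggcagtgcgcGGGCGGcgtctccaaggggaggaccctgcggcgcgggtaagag
Both windows held CCAAT, at -145 for Col4a1 and at -32 for Col4a2. Col4a1 held 1 match to GGGCGG and Col4a2 held 3. The match of Col4a1, at 10, lies on the same bases as that of Col4a2 at 8.

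The remaining collagens all fell. Col14a1 and Col12a1 encode FACIT collagens, which decorate fibril surfaces. Col14a1 had a median of 7.08 in tumors under 1 g (5.94 to 8.79) and 6.04 in tumors of 7 g or more (4.93 to 7.35), with a slope of -0.117 ± 0.020 and an adjusted p of 2.1e-06. Its r of -0.47 with burden was matched among the 37 genes only by Ogn. Col12a1 varied more between tumors (SD 1.12) and had a slope of -0.096 ± 0.032, with an adjusted p of 0.013. Col6a1, Col6a2 and Col6a3 form the beaded filaments of type VI collagen around cells. Their slopes were -0.060, -0.053 and -0.079 log2 per g, with adjusted p values of 0.017, 0.0012 and 0.00063. A dimmer second probe set of Col6a1 had a slope of 0.0090 and did not pass (adjusted p = 0.53).

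Among elastic fibre and microfibril genes 4 of 6 fell. Mfap5, a microfibril protein, had the steepest slope at -0.113 ± 0.025 with an adjusted p of 0.00020. Its median went from 7.90 (6.23 to 9.54) to 6.33 (5.55 to 8.43), and 13 of the 29 heaviest tumors lay below the lowest tumor under 1 g. Fbln5, a fibulin needed for elastic fibre assembly, and Mfap4 followed with slopes of -0.081 and -0.061. Eln, elastin itself, had a slope of -0.043 ± 0.013 and an adjusted p of 0.0063. Fbln2 had a slope of -0.033 ± 0.017 with an adjusted p of 0.12. Fbln1 had a slope of 0.0064 ± 0.012 with an adjusted p of 0.72, and its median was 9.24 in tumors under 1 g (8.61 to 9.87) and 9.54 in tumors of 7 g or more (8.20 to 10.08).

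All 5 adhesive and matricellular genes fell. Postn encodes periostin, a matricellular protein of activated fibroblasts. Its median was 9.13 in tumors under 1 g (7.29 to 10.18) and 7.68 in tumors of 7 g or more (4.90 to 9.17), with a slope of -0.107 ± 0.027 and an adjusted p of 0.00091. Fn1 (fibronectin), Thbs2 (thrombospondin 2), Tnc (tenascin C) and Sparc (osteonectin) had slopes of -0.082, -0.070, -0.069 and -0.065, with adjusted p values of 0.0070, 0.037, 0.022 and 0.0010. Thbs2 differed widely among heavy tumors: in those of 7 g or more it ran from 5.29 through 6.26 to 9.08, and 14 of the 29 lay below the lowest tumor under 1 g.

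All 3 collagen-processing genes fell. Lox, lysyl oxidase, cross-links collagen and elastin, and its median went from 8.12 (5.99 to 10.43) to 6.41 (4.57 to 9.09), with a slope of -0.117 ± 0.035 and an adjusted p of 0.0048. Loxl1, a related oxidase tied to elastin, had a slope of -0.065, and Pcolce, which enhances the trimming of procollagen, had one of -0.049, with adjusted p values of 0.0014 and 0.0013. Of the 2 PDGF receptors, 1 fell. Pdgfrb, the receptor of pericytes and fibroblasts, had a slope of -0.043 ± 0.017 and an adjusted p of 0.036. Pdgfra, a receptor of fibroblasts, had a slope of -0.022 ± 0.038 and an adjusted p of 0.69. Its values ran from 7.18 through 8.92 to 10.39 in tumors under 1 g and from 6.09 through 9.43 to 11.14 in tumors of 7 g or more, so its spread within a weight class far exceeded any step between classes.

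Tag numbers of the mice were used as a stand-in for the order of collection, since the labels give no batch. With 4 tag ranges as a block, 33 genes fell. Within a range the number of genes falling was 0 of 37 for tags under 500 (18 tumors, 0% of all probe sets) and 8 for 500 to under 800 (21 tumors, 9.64%). It was 0 for 800 to under 1000 (39 tumors, 0.14%) and 0 for 1000 and over (48 tumors, 0%). The median slope of the 37 genes was -0.082, -0.064, -0.094 and -0.032 log2 per g in the same order. The number with r below 0 was 36, 35, 37 and 31. Over all probe sets the share of slopes above 0 was 54.7%, 58.3%, 58.6% and 51.4%. In the last range Dcn, Lum and Ogn had r of -0.37, -0.36 and -0.43, whereas Col1a1 had -0.017 and Pdgfrb 0.18.

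**Figure D3:**
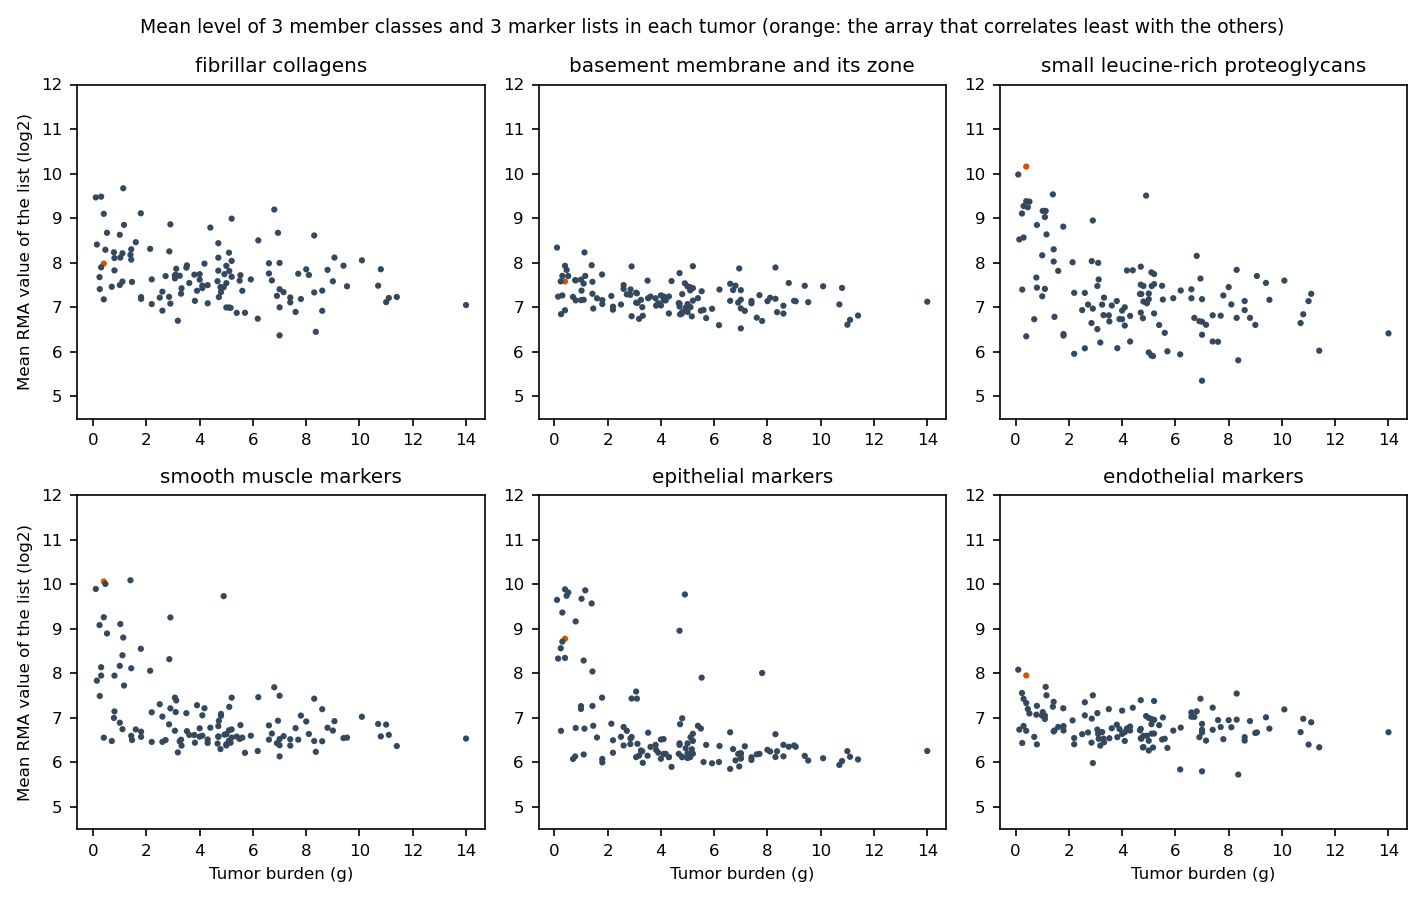
Mean RMA value (y axis, log2) of 3 classes of matrix genes and of 3 marker lists in each of 126 tumors against tumor burden (x axis, g), with the array that correlated least with the others in orange. The medians of the lightest and heaviest classes differ most for the epithelial mean (8.71 and 6.18) and by less for the basement membrane mean (7.58 and 7.12) and the endothelial mean (7.10 and 6.73).

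Markers of other cells moved with the matrix genes. The mean of 11 smooth muscle markers had medians of 7.95, 6.96, 6.61 and 6.59 from the lightest to the heaviest class, and all 11 fell. Its whole range was 6.48 to 10.06 in tumors under 1 g and 6.13 to 7.49 in tumors of 7 g or more. All 15 epithelial markers fell, among them Cdh1 (E-cadherin), Krt18 and Krt19. Their mean had medians of 8.71, 6.56, 6.25 and 6.18, with ranges of 6.07 to 9.88 under 1 g and 5.94 to 8.01 at 7 g or more. Of 15 fibroblast markers outside the 37 genes, 9 fell, with the smallest p values for Dpt, Pi16 and Gsn, and the range of their mean moved from 6.25 to 8.22 under 1 g to 6.03 to 7.15 at 7 g or more. Their part in the fall of the matrix genes was not tested beyond the covariate fits above.

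The counts of other lists are to be read against the 16.4% of all probe sets that fell and the 20.3% that rose. Of other stromal types those that fell were 6 of 12 for endothelium (Tek, Eng, Tie1 and others), 3 of 7 for pericytes (Anpep, Notch3, Cspg4), 3 of 10 for macrophages (Cd163, Mrc1, Csf1r), 4 of 7 for adipocytes and 1 of 5 for Schwann cells and nerve (Erbb3). Anpep and Erbb3 are made by epithelium as well. Seminal vesicle secretory genes fell in 3 of 5 cases, and the mean of that list ranged from 4.21 to 11.47 in tumors under 1 g and from 4.28 to 10.05 in tumors of 7 g or more. In the other direction, 11 of 15 neuroendocrine markers and 7 of 7 mitosis genes rose, with 0 falling in either list. Neurod4, Chgb and Stmn2 led the former and Bub1, Aurka and Top2a the latter.

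The other genes of the matrix pathways are set against all probe sets, of which 16.4% fell and 20.3% rose. Of 30 further collagens, 6 fell, 2 rose and 22 did not pass, with a median slope of -0.00012. Col6a5, Col17a1 and Col4a5 fell by 0.105, 0.032 and 0.039 log2 per g. Col9a3 and Col11a1, known from cartilage, rose, by 0.044 and 0.048. Of 19 further basement membrane genes 10 fell, led by the laminin chains Lamc1 and Lamb2 and by Smoc2, and 1 rose (Smoc1, slope 0.053). Lamb2 had a median of 8.74 in tumors under 1 g and 6.55 in tumors of 7 g or more.

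Of 19 further proteoglycans, 6 fell, among them Prelp, Epyc and Prg4, and 2 rose. The risers were the testicans Spock2 and Spock1, with slopes of 0.074 and 0.068. Prelp, itself a leucine-rich proteoglycan, had a median of 9.66 in the lightest class and 7.51 in the heaviest. Of 13 further elastic fibre genes 7 fell, led by Ltbp4, Efemp1 and Ltbp1, and Mfap2 rose by 0.060 log2 per g. Of 17 further matricellular genes 6 fell, among them Tnxb, Ecm1 and Matn2, and Thbs4 rose. Thbs4, thrombospondin 4, had medians of 9.82, 10.53, 10.62 and 10.90 from lightest to heaviest and a slope of 0.138 ± 0.030 with an adjusted p of 0.00016.

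Of 17 genes of collagen synthesis and secretion, 5 fell and 3 rose, the latter near the 20.3% of all probe sets. Serpinh1, the collagen chaperone HSP47, fell by 0.065 log2 per g, and P4hb and Mia3 fell by 0.032 and 0.030. P4ha1, the catalytic chain of prolyl 4-hydroxylase, rose by 0.066 with an adjusted p of 0.00060, and Sec23a and Plod2 rose by 0.034 and 0.044. Matrix receptors fell in 10 of 18 cases and rose in 0, led by the integrins Itga3, Itga1 and Itgb4. Of 15 genes of TGF-beta and PDGF signalling, 8 fell, among them Pdgfd, Tgfbr3 and Tgfbr2, and 4 rose, among them Smad2, Tgfb2 and Tgfbr1. Tgfbr1 and Tgfbr2 encode the partner chains of a single receptor and had slopes of 0.024 and -0.091.

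By metastasis label, 0 of the 37 genes passed in a limma comparison of 87 tumors with metastasis and 39 without, and 0% of all probe sets did (0 of 23507, with 874 at an unadjusted p under 0.05). The methods' t-test gave 882 at that level and 0 after adjustment. The means of 30 of the 37 genes were lower with metastasis, and the ranges of both groups overlapped for all 37. Over all probe sets 51.9% had a higher mean with metastasis. The 37 genes varied together, so their signs are not separate results. The smallest unadjusted p among the 37 genes was 0.054, for Eln, with a difference of 0.17 ± 0.087 (SE). Fbln1 followed with 0.15 ± 0.078 and an unadjusted p of 0.064.

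Among the 37 genes Dcn had the largest difference. It ran from 5.58 through a median of 9.25 to 12.36 with metastasis and from 6.74 through 9.39 to 12.29 without, a difference in means of -0.45 with a 95% interval from -0.997 to 0.106. For Col1a1 the difference was -0.086, with an interval from -0.42 to 0.24, and for Col4a1 it was -0.0044, from -0.14 to 0.13. The median difference was -0.086 for the fibrillar, -0.0088 for the basement membrane and -0.14 for the proteoglycan class. Epithelial markers had a median difference of -0.24 and smooth muscle markers of -0.067. Within the tag ranges the number of genes with a lower mean in the metastasis group was 34, 28, 5 and 19 of 37 from the lowest tags to the highest, with 0 passing in each, so the direction did not hold across ranges. With burden as a covariate the median over the 37 genes moved from -0.048 to -0.014, and 0 passed. The number of genes with an estimate below 0 was then 21, and it was 18 without tumors under 1 g.

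**Figure D4:**
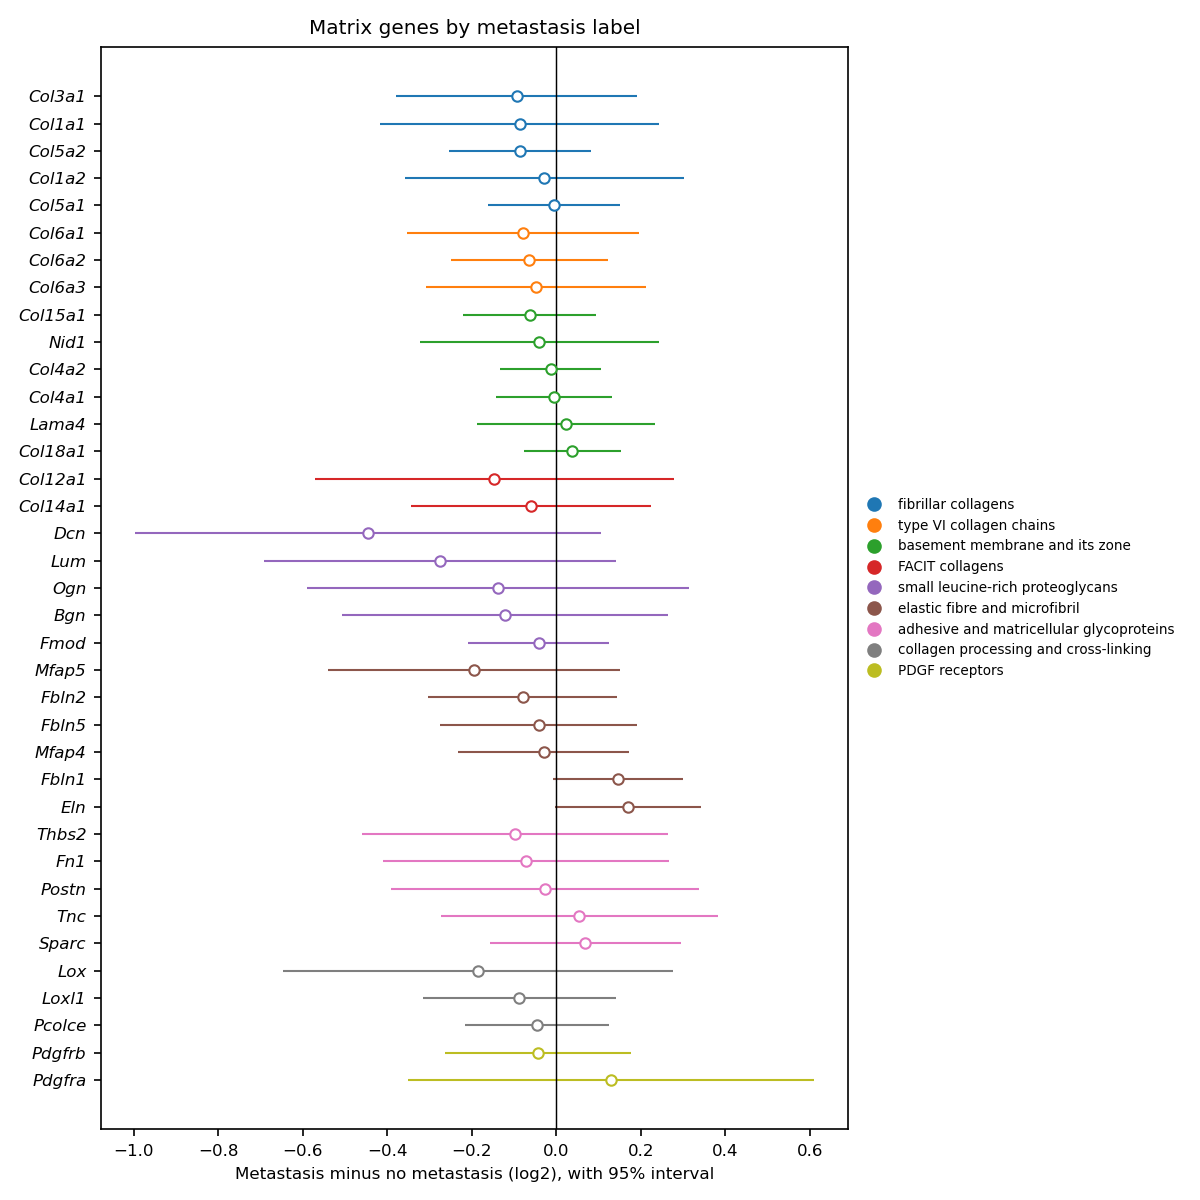
Difference between tumors with metastasis (n = 87) and with no metastasis (n = 39) for each of 37 matrix genes (x axis, log2, with the 95% interval), grouped by class. All points are open because 0 passed an adjusted p of 0.05, and every interval reaches 0.

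The fall with burden was present under both labels. Within the metastasis group 22 of the 37 genes fell, against 10.5% of all probe sets, and within the other group 17 did, against 10.1%. All 37 correlations with burden were below 0 with metastasis and 35 without. Over all probe sets 59.4% of slopes were above 0 with metastasis and 53.2% without. For Dcn, r was -0.42 with metastasis and -0.51 without. The slopes differed between the labels for 0 of the 37 genes and 0% of all probe sets in the interaction test, in which 3180 probe sets had an unadjusted p under 0.05. The smallest unadjusted interaction p among the 37 genes was 0.10, for Sparc.

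The matrix genes varied together. Over 666 pairs the median Pearson r across the 126 tumors was 0.61, with a range from -0.33 to 0.97, and 451 pairs exceeded 0.5. The median r of the same genes with all other probe sets tested was -0.047. The first principal component of the 37 genes held 60.4% of their variance and the second 6.70%. All pairs share the same arrays and the same mixture of cells, so r describes these tumors. After removal of the fit on burden the median over all pairs was 0.58, and without tumors under 1 g it was 0.55.

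**Figure D5:**
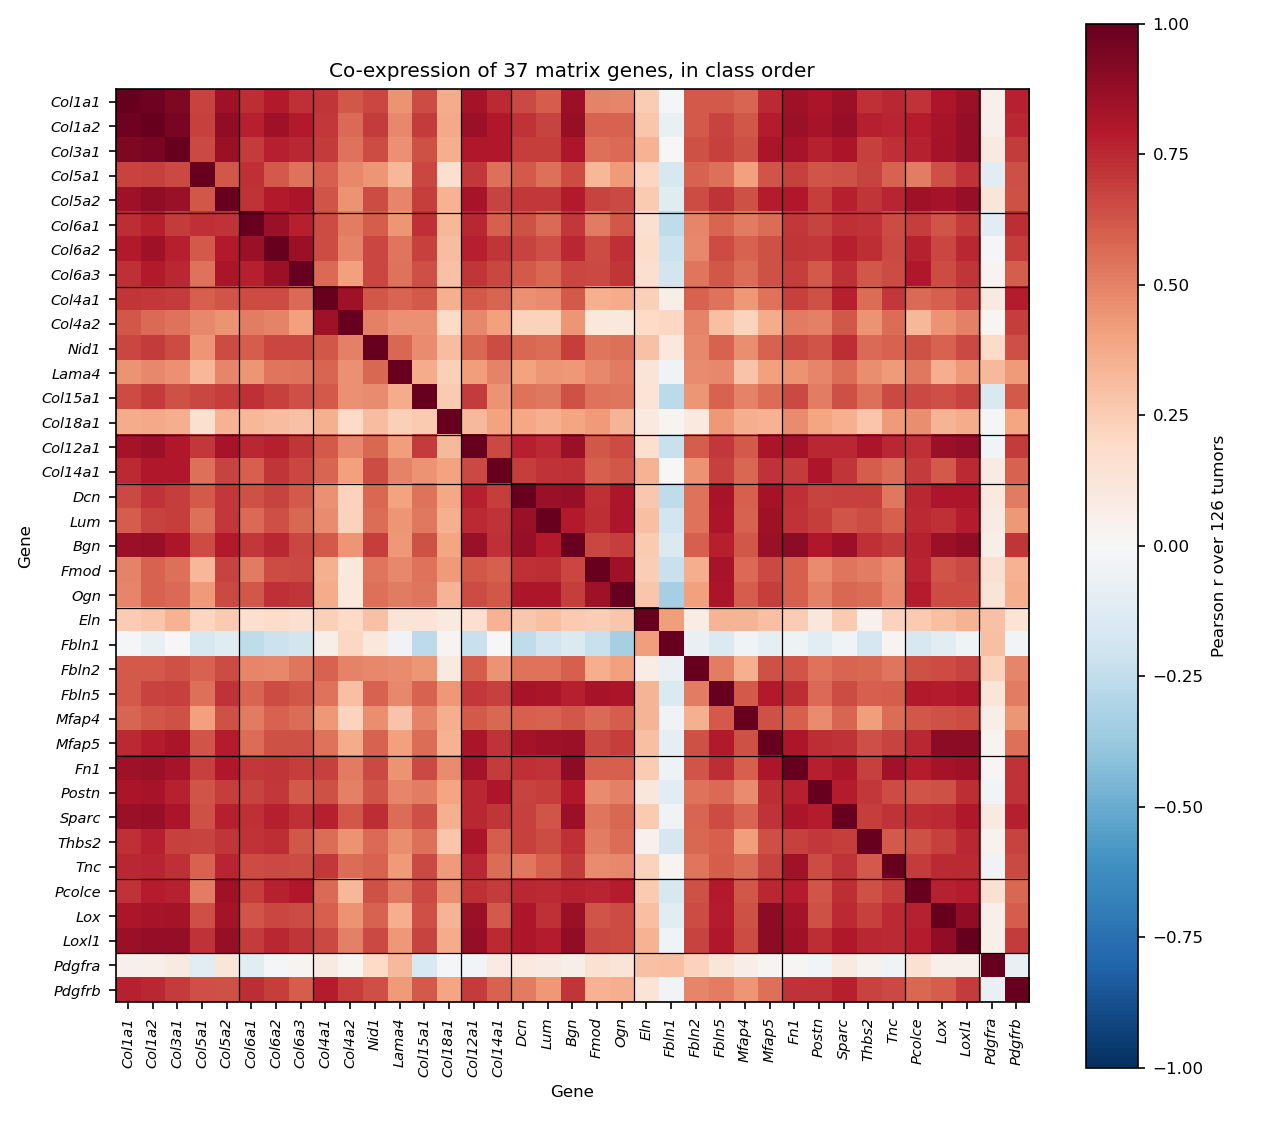
Pearson r over 126 tumors (colour, from -1 in blue to 1 in red) of each pair of 37 matrix genes, ordered by class with lines between classes. The fibrillar and type VI blocks are dark, with a median r of 0.86 each, and the rows of Fbln1, Pdgfra and Eln are pale.

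The fibrillar collagens and the type VI chains had the highest medians within a class, both with r = 0.86, over 10 pairs (0.62 to 0.97) and 3 pairs (0.78 to 0.86). With the dimmer second probe set of the 6 genes that have one, the fibrillar median was 0.43 and the proteoglycan median 0.45. Col1a1 and Col1a2, the partner chains of type I collagen, had r = 0.97 and rho = 0.97, with a permutation p of 1e-05, the smallest that 100000 resamples can give. Without the 2 tumors farthest from the median of Col1a1, r was again 0.97, and within the tag ranges it lay between 0.97 and 0.98. Col1a2 and Col3a1 had r = 0.95. The proteoglycan class followed with a median r of 0.80 (0.67 to 0.87), and the basement membrane class was looser with 0.46 (0.19 to 0.85). The medians between classes were 0.66 for fibrillar with proteoglycan genes, 0.58 for fibrillar with basement membrane genes and 0.45 for basement membrane with proteoglycan genes.

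Several pairs of the 37 genes are neighbouring protein-coding genes in the RefSeq annotation. Col3a1 and Col5a2 on chromosome 1 had r = 0.87 and rho = 0.82, Dcn and Lum on chromosome 10 had r = 0.87 and rho = 0.90, and Col6a1 and Col6a2, also on chromosome 10, had r = 0.86 and rho = 0.85. The head-to-head pair Col4a1 and Col4a2 had r = 0.85 and rho = 0.85, and the permutation p was 1e-05 for each of these 4 pairs, among 666 computed. Without the 2 tumors farthest from the median of the first gene, these r ranged from 0.84 to 0.87. Pairs without such a link reached similar values, among them Lox with Mfap5 (r = 0.90) and Bgn with Fn1 (r = 0.90).

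A few genes stood outside the common pattern. Fbln1 had a median r of -0.082 with the other 36 genes, and its lowest was -0.33, with Ogn. Pdgfra had a median r of 0.056 and its best partner was Lama4 at 0.32. Eln had 0.26 and Col18a1 0.35. None of these 4 genes exceeded 0.5 with any other of the 37. The 2 PDGF receptors had r = -0.072 and rho = -0.099, with permutation p values of 0.42 and 0.27, whereas Pdgfrb followed Col4a1 with r = 0.79 and rho = 0.73. Without the 2 tumors farthest from the median of Col4a1 that r was 0.76. Pdgfra ranged over 5.32 log2 units across the tumors, with an SD of 1.27 that only Dcn exceeded. Its r with the mean of the fibroblast markers was 0.15, and that of Pdgfrb was 0.57.

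Each class mean followed several marker lists, and the r given here are a description. The proteoglycan mean had r = 0.92 with the 15 fibroblast markers, 0.88 with smooth muscle, 0.74 with epithelial and -0.73 with mitosis markers. The fibrillar mean had r = 0.75 with fibroblast, 0.73 with macrophage, 0.71 with endothelial, 0.59 with smooth muscle and 0.42 with epithelial markers. The basement membrane mean had r = 0.84 with endothelial and 0.80 with pericyte markers and 0.64 with smooth muscle. Its r with fibroblast markers was 0.76, about that of the fibrillar mean. High r with pericyte markers was also found for the type VI mean (0.81) and the proteoglycan mean (0.76). The proteoglycan mean had 0.765 with Schwann cell and nerve markers. The mean of that list itself had r = 0.89 with the epithelial mean, and the pericyte mean had 0.68 with it. These lists hold Erbb3 and Anpep, which epithelium also makes, so they do not stand for these stromal cells alone. Whether the classes differ in these r was not tested. Among tumors of 1 g or more the proteoglycan mean kept r = 0.82 with smooth muscle markers, and the basement membrane mean 0.83 with endothelial markers. Col4a2 had r = 0.63 with endothelial and -0.0076 with epithelial markers.

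Outside the 37 genes, the closest partners differed by class. The mean of the fibrillar genes, each scaled to unit variance, was most like Serpinh1 (r = 0.84), followed by Mmp14 (0.82), a membrane-bound collagenase, Lrrc32 (0.82), Timp1 (0.82), Pla1a, Dab2, Mrc2, Colec12, Lhfp and Stab1, the last at 0.79. Mrc2 encodes a receptor that takes up collagen fragments. The basement membrane mean was most like Lamb1 (0.86), a laminin chain, followed by Eng (0.84), Serpinh1 (0.83), Adgrf5, Itga1 (0.81), Gja1, Tie1, Oaf, Hspg2 (0.77) and Itga5 (0.76). Eng and Tie1 are endothelial receptors, and Hspg2 encodes perlecan.

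The proteoglycan mean was most like Gpx8 (r = 0.93), followed by Mxra8 (0.91), Myof (0.91), Igfbp6, Serping1, Osmr, Il13ra1, Plac8, Pla2g4a and the smooth muscle gene Tagln (0.89). At the other end, Ttk, Nup107, Fbxo5, Bard1 and Tdrkh had r from -0.78 to -0.76 with it. Their rho was weaker, from -0.60 to -0.53. Ttk and Fbxo5 act in mitosis. The lowest r with the fibrillar mean was -0.53 (Ndufs5, then Zbtb14, Lin7c, Rexo5 and Atg12), and with the basement membrane mean -0.56 (Snrpb2, then Npm1, Ppm1d, Ccdc43 and Aard). Over all probe sets tested the median r with the 3 means lay between -0.064 and -0.055.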

How the data were processed

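Affymetrix Mouse Gene 2.0 ST arrays were run on RNA of 126 prostate tumors, 1 array per tumor. The deposited values are log2 intensities that the authors normalized by RMA and summarised per probe set with Partek, so background correction and quantile normalization preceded every value here. Precision is limited by how many arrays there are. The labels name a column kit for RNA extraction and the methods a phenol reagent. The labels give burden without a unit, and g was taken from the column heading of the study's phenotype records.

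Probe sets were named from the platform annotation: 23521 had 1 symbol, 1820 several and 16004 none. Those with a symbol and a mean at or above the 10th percentile (3.42) were tested with limma 3.58.1 in R 4.3.3 (lmFit and eBayes, Benjamini-Hochberg over 23507, threshold 0.05) for burden, label and their interaction. The 38 genes, the classes and the lists were chosen with earlier results of these data known. Each gene was read from its brightest probe set. Named in the text were all 38 genes, at most 3 genes of each list per direction by smallest p for burden, and the 10 highest and 5 lowest partners of each class mean. Correlations used all tumors, and permutation tests were two-sided with 100000 resamples. The limma fits of burden and of label, but not the other steps, were tested on simulated data. Promoters are from RefSeq (GRCm38.p6), with no window printed from chromosome 18. No protein sequences were used here.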

Additional observations from a re-analysis of the deposited data

How the results depend on the processing

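The count of falling genes was again 33 with the methods' Pearson test, the filter at the 25th percentile, the tag block and without the array that correlated least with the others. Between 30 and 34 fell with Spearman ranks, log2 burden, no filter, centring, repeated quantile normalization, the label as a covariate or without the 2 tumors farthest from the median burden. Over all probe sets, without tumors under 1 g 870 rose and 1067 fell, and 6 of the 37 genes fell. With the epithelial mean as a covariate, 25 and 36 probe sets and 0 of the 37 genes passed, and with the smooth muscle mean 74, 46 and 0. Within tag ranges the counts over all probe sets were 2585 and 2266 for 500 to under 800 (8 of the 37 genes), 15 and 33 for 800 to under 1000, and 0 in both other ranges, with 0 of the 37 genes in these 3 ranges. With metastasis 2240 rose and 2471 fell, and without it 2614 and 2368, with 17 of the 37 genes falling; this split was chosen after seeing the data.

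With the smooth muscle covariate the slopes of Col12a1 (0.031), Fn1 (0.017), Thbs2 (0.016), Tnc (0.012), Col6a1 (0.0095), Col15a1 (0.0074), Fmod (0.0055), Pcolce (0.0047), Fbln5 (0.0030), Lama4 (0.0019), Col6a2 (0.00044) and Loxl1 (0.00029) turned above 0 without passing the threshold, as did Fmod (0.0089) and Pcolce (0.0073) with the epithelial covariate. For tags of 1000 and over the slopes of Pdgfrb (0.039), Col18a1 (0.023), Col15a1 (0.016) and Col4a1 (0.0092) did so. The cause was not tested.

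With the epithelial covariate the class medians of the slopes were -0.041, -0.0098 and -0.034 for fibrillar, basement membrane and proteoglycan genes. They were -0.019, -0.0014 and -0.019 with the smooth muscle covariate. The fibrillar median was thus the steepest of these in the former fit and about equal to the proteoglycan median in the latter. In both fits 0 genes of these classes passed, and the order of the classes was not tested. Without tumors under 1 g the proteoglycan median was -0.10. The median r of the fibrillar and proteoglycan classes was 0.82 and 0.77 with ranks. Without tumors under 1 g it was 0.74 for proteoglycans and 0.55 over all pairs, and after the fit on burden 0.76 for proteoglycans. With the other probe set of 6 genes it was 0.43 for fibrillar, 0.45 for proteoglycan and 0.50 for all pairs, and within tags 800 to under 1000 it was 0.72 for all pairs. The label gave 0 calls in every setting. No group had 4 to 10 samples, so no sample was tested as an outlier.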

Other observations

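The extremes of the 37 genes were spread over many tumors, most of which held only 1, but some tumors held several. Of the 37 highest values, 9 were in a tumor of 0.10 g with metastasis, 8 in one of 1.13 g with metastasis and 4 in the tumor whose array correlated least with the others. Of the 37 lowest values, 10 were in a tumor of 7.00 g with metastasis and 6 in one of 8.36 g with no metastasis. The tumor of 1.13 g had the highest fibrillar mean (9.67) together with an epithelial mean of 6.76 and a neuroendocrine mean of 8.44. The tumor of 0.10 g had a fibrillar mean of 9.47, an epithelial mean of 9.65 and a neuroendocrine mean of 7.15. A tumor of 6.80 g with metastasis had a fibrillar mean of 9.19, with an epithelial mean of 6.04 and a neuroendocrine mean of 8.94, and it held the highest Col12a1, Col15a1 and Thbs2 of all 126.

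Of the 37 genes, 6 had another, dimmer probe set of their own. That of Nid1 correlated with the chosen one at r = 0.94 and had a slope of -0.093 log2 per g. Those of Col6a1, Bgn, Col1a2, Fmod and Col5a1 correlated at 0.59, 0.57, 0.45, 0.26 and 0.016, and their slopes were 0.0090, -0.021, 0.0067, -0.0022 and 0.0079.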
